A study of Mus musculus with 32 samples.

Results

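Sae1, Ccdc61, Clptm1, Igsf23, Zfp235 and Sirt2 are 6 genes of mouse chromosome 7 that were compared here between livers of PXR-KO and wild-type (WT) mice and between diets with ethanol (EtOH) and without it. They were picked by name from genes whose intensities separated all PXR-KO arrays from all WT arrays and that lie near the cluster of Cyp2b genes, so their genotype difference is a description and carries no test. They are 6 of the 8426 genes measured by a probe with 1 gene symbol, and each is measured by 1 probe. Every array is of liver RNA from mice labelled C57BL/6J. The 32 arrays fall into 8 groups of 4, which combine sex, genotype (WT or PXR-KO, whose design text name is PXR-null) and diet. For the females the design text gives 5% EtOH or a paired-fed control diet over 8 weeks. It gives no such detail for the males. How the null allele was made and the age of the mice are not given in the sources used here. The labels do not say that the 4 replicates of a group are separate animals, so p-values measure the spread between these samples, which may be technical.

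PXR (pregnane X receptor) is the product of Nr1i2, a hepatocyte receptor of the nuclear receptor family that binds drugs and bile acids, pairs with the retinoid X receptor and switches on genes of drug metabolism. The Cyp2b genes, which encode cytochrome P450 enzymes of drug and steroid metabolism, form a cluster on chromosome 7 and are classic targets of the related receptor CAR. The 6 genes have no common pathway. Sae1 encodes a subunit of the enzyme that activates SUMO, a small protein attached to other proteins. Sirt2 encodes a deacetylase that uses NAD. Zfp235 encodes a zinc finger protein of the kind that binds DNA, Igsf23 a membrane protein of the immunoglobulin superfamily, Clptm1 a membrane protein that holds back the transport of GABA receptors, and Ccdc61 a coiled-coil protein of centrioles and basal bodies.

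In the order of the 665 measured genes of chromosome 7, Sae1 came at place 101, Ccdc61 at 120, Clptm1 at 136, Igsf23 at 142, Zfp235 at 156 and Sirt2 at 199. The Cyp2b genes lay between Zfp235 and Sirt2, from Cyp2b10 at place 171 to Cyp2b19 at 177. Between successive genes of the 6 stood 18, 15, 5, 13 and 42 other measured genes, so none of the 6 was the next measured gene to another.

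Promoter windows from RefSeq (GRCm38.p6), from 250 bases before to 50 after a start, were found for 5 of the 6 genes, with 6 windows in all because Igsf23 has 2. The 250 bases before the start are shown for Igsf23, the gene with the largest difference, and for Zfp235 and Sirt2, the genes on either side of the Cyp2b cluster, each 5′ to 3′ on the strand of its gene. Capitals mark the letters of the motifs searched on both strands, named in the next paragraph.
Igsf23, chr7:19950744-19950993, minus strand: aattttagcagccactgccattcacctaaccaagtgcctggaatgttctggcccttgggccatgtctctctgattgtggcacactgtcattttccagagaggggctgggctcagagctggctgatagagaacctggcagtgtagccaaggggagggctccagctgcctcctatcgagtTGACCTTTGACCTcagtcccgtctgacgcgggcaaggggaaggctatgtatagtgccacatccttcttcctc
Zfp235, chr7:24132122-24132371, plus strand: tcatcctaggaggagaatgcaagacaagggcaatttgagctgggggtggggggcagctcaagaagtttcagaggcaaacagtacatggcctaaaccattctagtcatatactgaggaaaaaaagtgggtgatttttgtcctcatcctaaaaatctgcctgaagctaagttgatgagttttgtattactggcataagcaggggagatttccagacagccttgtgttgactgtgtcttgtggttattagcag
Sirt2, chr7:28766502-28766751, plus strand: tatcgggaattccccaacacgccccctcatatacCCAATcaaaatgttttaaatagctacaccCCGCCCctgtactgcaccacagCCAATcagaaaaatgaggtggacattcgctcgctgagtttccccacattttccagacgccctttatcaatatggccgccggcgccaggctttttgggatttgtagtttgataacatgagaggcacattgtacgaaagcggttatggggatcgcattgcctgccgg

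The capitals of the Igsf23 window are a match, on the opposite strand, to AGGTCANAGGTCA, the direct repeat with spacer 1 that several nuclear receptors recognise. This motif was found in 13 of 32851 RefSeq windows (0.0396%) and in no other window of the 6 genes. Its core, AGGTCA, was found in 16.3% of all windows and, among the 6 windows here, in that one alone, where both cores are part of the repeat. The second form of the core, AGTTCA, was in 14.0% of windows and in that of Clptm1. Repeats of AGTTCA with spacers 3 and 4 and the everted repeat TGAACTNNNNNNAGTTCA, forms known from PXR and CAR targets, were in 0, 0.0122 and 0.00609% of all windows and in 0 of these 6. The capitals in the Sirt2 window are the CCAAT box (CCAAT, in 37.4% of windows) and the GC box (GGGCGG, in 35.7%). Ccdc61 held both boxes as well, and Clptm1 the GC box. The Zfp235 window held none of the motifs and had 1 CG dinucleotide, against 30 in that of Clptm1 and a median of 7 over all windows. The other window of Igsf23, which is not shown, also held none of the motifs. A match describes letters and is not a site of binding.

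The intensities of the 32 arrays differed in a way that touches the genotype comparison. In 10 arrays, all 8 of PXR-KO males and arrays 1 and 2 of the control-fed PXR-KO females, all log2 values had a narrower spread (SD 2.367 to 2.435) than in the other 22 (2.466 to 2.545). In males the genotype and this narrow spread cannot be told apart. The library labelled array 1 of the EtOH-fed WT males stood with the females in Hao2, a female-biased liver gene, at 8.57 where the 8 WT females lay at 8.15 to 8.74 and the other 7 WT males at 3.53 to 4.35. Nr1i2 averaged 8.87 ± 0.17 (log2 intensity, SD, n = 16) in PXR-KO and 8.62 ± 0.24 in WT, a difference of 0.25 ± 0.06 (SE), so it was not lower in PXR-KO. Where its probe lies relative to the removed part of the gene is not known here, and its level does not check the labels. The hepatocyte markers Alb, Apob and Ttr had mean log2 intensities of 12.5 to 13.5 over all arrays, near the top of the table. These are bulk samples, in which fewer cells of a type and less RNA per cell cannot be told apart.

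Sae1 was the higher gene in PXR-KO with the widest gap. Over the 16 PXR-KO arrays its log2 intensity was 7.72 at the lowest, 8.05 at the median and 8.27 at the highest, and over the 16 WT arrays 6.63, 6.86 and 7.11. Every PXR-KO array thus lay above every WT array, with 0.61 log2 units between the nearest 2. The means were 8.04 ± 0.12 (SD, n = 16) and 6.86 ± 0.12, a difference of 1.18 ± 0.04 (SE, limma), or 2.26-fold. In control-fed females the 4 WT arrays had 6.87, 6.77, 6.82 and 6.77 and the 4 PXR-KO arrays 8.11, 7.87, 8.02 and 7.72. In control-fed males they had 6.91, 6.96, 6.85 and 6.63 in WT and 8.12, 8.08, 8.07 and 8.02 in PXR-KO. That the levels of the 2 genotypes were apart in both sexes follows from the choice of the gene. The 4 PXR-KO groups had means between 7.93 and 8.11, a range of 0.18 that is about the largest SD within one of them (0.17).

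Igsf23 was also higher in PXR-KO and was the most variable of the 6 among PXR-KO arrays. Its log2 intensity over the PXR-KO arrays was 6.54, 7.12 and 7.44 at the lowest, the median and the highest, and over the WT arrays 5.66, 5.81 and 6.11. The groups did not overlap, with a gap of 0.42. The means were 7.09 ± 0.29 (SD, n = 16) in PXR-KO and 5.81 ± 0.11 in WT, a difference of 1.28 ± 0.07 (SE), or 2.42-fold. In EtOH-fed females the WT arrays had 5.85, 5.84, 5.69 and 5.66 and the PXR-KO arrays 7.43, 7.07, 7.09 and 6.94. Among the PXR-KO groups the mean was lowest in EtOH-fed males, at 6.86 ± 0.34 (SD, n = 4), and highest in control-fed males, at 7.22 ± 0.32, which is a range near the SD within these groups.

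Ccdc61, Clptm1, Zfp235 and Sirt2 were lower in PXR-KO, by 1.18- to 1.29-fold. Zfp235 had the largest difference of these. Its log2 intensity was 5.21, 5.34 and 5.48 at the lowest, the median and the highest of the PXR-KO arrays and 5.53, 5.73 and 5.90 in WT, with a gap of 0.05. The means were 5.34 ± 0.08 (SD, n = 16) and 5.71 ± 0.10, a difference of -0.36 ± 0.03 (SE). Both lie close to the medians of all probes on the arrays, 5.29 to 5.43, so how much of the signal is above background is not shown.

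Sirt2 came closest to an overlap. Its PXR-KO arrays lay at 8.66, 8.82 and 8.95 (lowest, median, highest) and its WT arrays at 8.96, 9.12 and 9.29. The highest PXR-KO array, of an EtOH-fed male, and the lowest WT array, of a control-fed male, were 0.004 log2 units apart. Sirt2 differed by -0.31 ± 0.04 (SE), from 9.13 ± 0.10 (SD, n = 16) in WT to 8.82 ± 0.10.

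Clptm1 lay at 9.12, 9.31 and 9.42 in the PXR-KO arrays and at 9.44, 9.53 and 9.65 in WT, a gap of 0.026 and a difference of -0.24 ± 0.03 (SE). For Ccdc61 the values were 5.92, 6.03 and 6.14 in PXR-KO and 6.16, 6.27 and 6.38 in WT, with a gap of 0.019 and a difference of -0.25 ± 0.03. These differences exceeded the SD of the 16 arrays of a genotype, 0.06 to 0.07 for both genes. The genes were chosen for arrays without overlap, so this says nothing further.

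**Figure D1:**
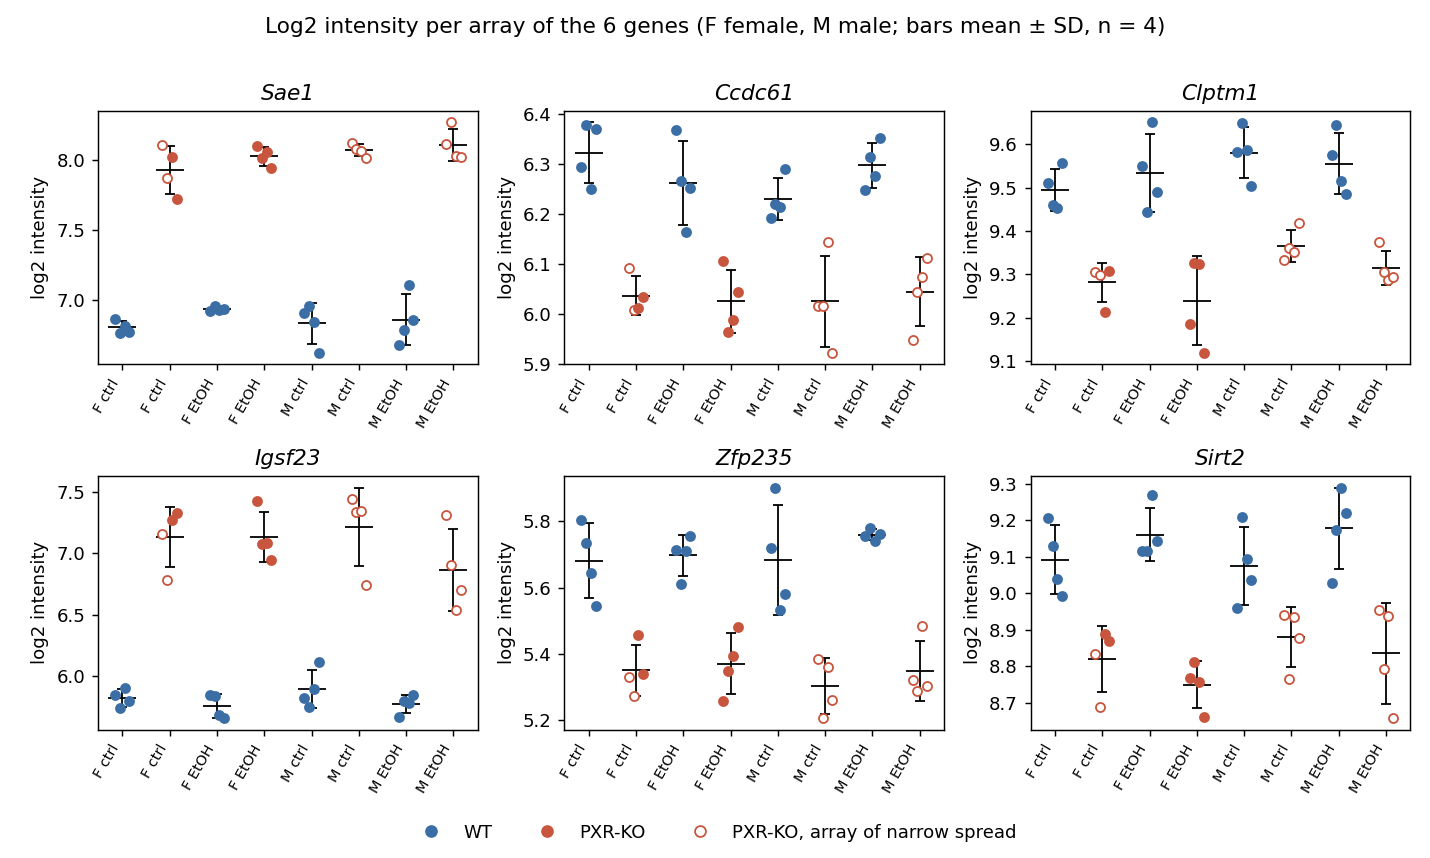
Log2 intensity of each of the 32 arrays (vertical axis, own scale for each gene) by sex (F, M), diet (ctrl, EtOH) and genotype, with WT in blue and PXR-KO in red, open circles for arrays of narrow spread and bars for mean ± SD of 4 arrays. In all 6 panels the PXR-KO points lie wholly above (Sae1, Igsf23) or wholly below (Ccdc61, Clptm1, Zfp235, Sirt2) the WT points.

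Of all 8426 genes, 67 separated the 16 PXR-KO from the 16 WT arrays without overlap (0.795%), 19 of them higher in PXR-KO (0.225%) and 48 lower (0.57%). The 6 genes were chosen from these 67, so their own count says nothing further. Chromosome 7 held 10 of the 67 among its 665 genes, the 6 described here and 4 others, Nlrp12, Mir292b, Cox6b2 and Vmn2r29, which were named after their values were seen and all come before Sae1. After Sirt2, 0 of 466 genes separated the genotypes in this way. Chromosome 4 held 12 of the 67 and chromosome 6 held 10.

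The difference kept its direction in each sex and diet, which was fixed by the choice of the genes. For Sae1, PXR-KO minus WT was 1.12 in control-fed females, 1.09 in EtOH-fed females, 1.24 in control-fed males and 1.25 in EtOH-fed males, each with an SE of 0.08 (n = 4 against 4). Igsf23 gave 1.31, 1.38, 1.32 and 1.09 (SE 0.14) in the same order. Zfp235 gave -0.33, -0.33, -0.38 and -0.41 (SE 0.07). Within each of these 4 strata the 4 PXR-KO and 4 WT arrays did not overlap for any of the 6 genes, which follows from the choice of the genes. Among all genes the share without overlap was 16.1% in control-fed females, 19.4% in EtOH-fed females, 37.4% in control-fed males and 27.7% in EtOH-fed males.

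Sirt2 gave -0.27, -0.41, -0.19 and -0.34 (SE 0.07), and the 2 larger differences were on the EtOH diet. Clptm1 gave -0.21, -0.29, -0.21 and -0.24 and Ccdc61 -0.29, -0.24, -0.20 and -0.25, each with an SE of 0.05. For both genes the 4 values lay within 2 SE of one another. Without the arrays of narrow spread, the females alone gave 1.08 ± 0.07 (SE) for Sae1 against 1.11 with all arrays, 1.43 ± 0.07 for Igsf23 against 1.35, -0.31 ± 0.06 for Zfp235 against -0.33 and -0.31 ± 0.05 for Sirt2 against -0.34. Ccdc61 gave -0.27 ± 0.04 against -0.26 and Clptm1 -0.26 ± 0.05 against -0.25. The genotype difference of all 6 in females was thus about as large without the narrow arrays. That 6 of 6 were without overlap there as well, where 5.54% of all genes were, was fixed by the choice of the genes. With that male array (EtOH-fed WT, array 1) left out, the difference over both sexes became 1.16 for Sae1 and -0.32 for Sirt2 and moved less for the other 4.

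**Figure D2:**
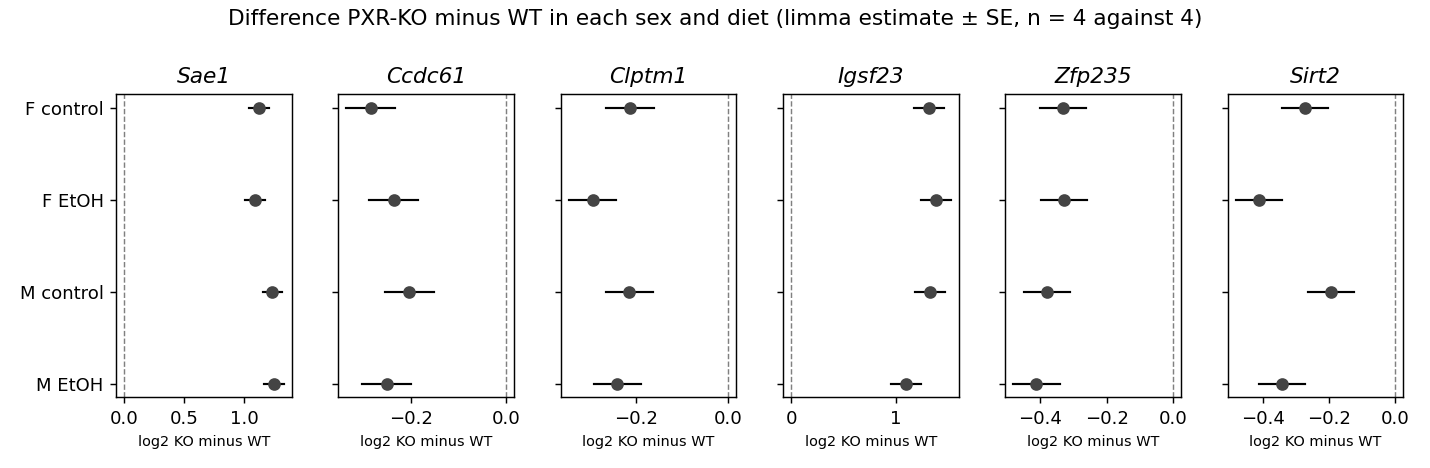
PXR-KO minus WT in log2 units (horizontal axis, own scale for each gene) in each sex and diet, with points for the limma estimate and bars for ± SE, n = 4 against 4. Sae1 and Igsf23 lie above 0 by 1.09 to 1.38, the other genes below 0 by 0.19 to 0.41.

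Diet was no criterion in the choice of the 6 genes, but arrays of both diets had to separate by genotype. This made large diet effects less likely among them. The shares of all genes given for the diet tests, interaction included, are therefore not a like comparison. Diet was tested with limma over all 8426 genes, calling a gene at a Benjamini-Hochberg adjusted p under 0.05. Averaged over sex and genotype, 0 of the 6 were called, against 8.13% of all genes, and 0 had an unadjusted p under 0.05. Igsf23 differed by -0.14 ± 0.07 (SE, EtOH minus control, limma adjusted p = 0.222), with a 95% interval from -0.28 to 0.01, and Sae1 by 0.07 ± 0.04 (adjusted p = 0.252). The remaining 4 lay between -0.02 and 0.04. Their 95% intervals reached no further than -0.07 and 0.11. The median over the 6 genes was 0.01, beside -0.01 over all genes.

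Within the 4 groups of sex and genotype, 0 of the 6 were called for diet in any, where the share of all genes called was 0% in WT females, 0.0237% in PXR-KO females, 8.17% in WT males and 0.273% in PXR-KO males. Only Igsf23 in PXR-KO males had an unadjusted p under 0.05. Its control-fed arrays had 7.44, 7.33, 7.35 and 6.74 and its EtOH-fed arrays 7.31, 6.90, 6.54 and 6.70. The groups overlapped, through the 4th control-fed array and the 1st EtOH-fed one. The difference was -0.35 ± 0.14 (SE, limma adjusted p = 0.293).

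Sae1 in WT females separated the diets without passing the test. Its control-fed arrays had 6.87, 6.77, 6.82 and 6.77 and its EtOH-fed arrays 6.93, 6.96, 6.93 and 6.94. The difference was 0.13 ± 0.08 (SE, limma adjusted p = 0.547), with an SE that rests on the spread in all 8 groups. Among all genes 7.43% separated the diets in WT females, and of the 6 genes Sae1 did. In the other 3 pairs of diet groups 0 of the 6 separated, against 8.68% of all genes in PXR-KO females, 9.77% in WT males and 5.82% in PXR-KO males.

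The diet by genotype interaction, the EtOH effect in PXR-KO minus that in WT, called 0 of the 6 and 0.202% of all genes. The smallest adjusted p was that of Sirt2 (-0.14 ± 0.07, limma adjusted p = 0.282), whose EtOH minus control values were 0.07 and 0.10 in WT females and males and -0.07 and -0.04 in PXR-KO. Its 95% interval ran from -0.29 to 0.0006. For the other 5 the interaction lay between -0.08 and 0.0003.

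**Figure D3:**
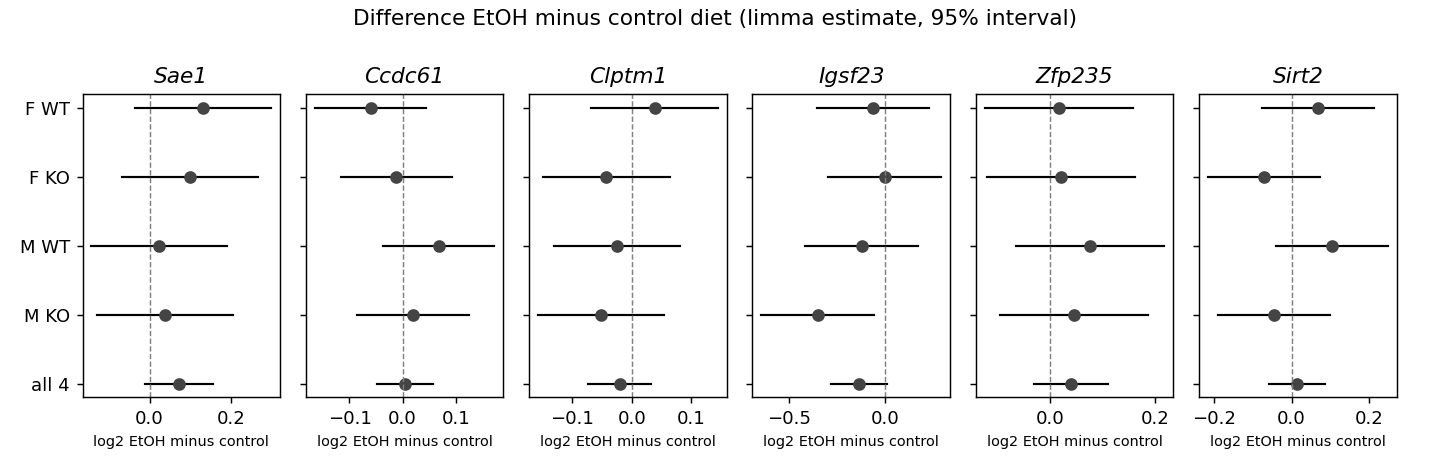
EtOH minus control diet in log2 units (horizontal axis, own scale for each gene) in each sex and genotype and averaged over the 4, with points for the limma estimate and bars for the 95% interval. All intervals hold 0 apart from Igsf23 in PXR-KO males, -0.65 to -0.06 before adjustment.

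Females and males did not differ in the test for any of the 6 in WT (0 called, against 5.59% of all genes). Clptm1 had the smallest adjusted p, with a female minus male difference of -0.05 ± 0.04 (SE, limma adjusted p = 0.502), and the other differences lay between -0.04 and 0.03. The genotype difference was set against sex as well, and 0 of the 6 were called where 25.9% of all genes were. The choice of the 6 asked for arrays of both sexes to separate by genotype. Sizeable sex terms were thus less likely among them, and neither share of all genes is a like comparison. Sae1 was nearest, with a genotype difference in females minus that in males of -0.14 ± 0.08 (SE, limma adjusted p = 0.203, 95% interval -0.30 to 0.03). For Igsf23 the term was 0.14 ± 0.14, with an interval from -0.16 to 0.43 that leaves room for a sizeable difference between the sexes. In males this term carries the narrow spread of the PXR-KO arrays, and its part in the result was not tested.

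The neighbours of the 6 genes were examined next. Between Sae1 and Sirt2 lay 93 other measured genes. In females, 9 of these were higher and 28 lower in PXR-KO (39.8%), where 21.8% of all genes were called (10.1% higher and 11.7% lower, limma adjusted p under 0.05). On chromosome 7 the share was 38.0% of the 100 genes before Sae1 and 18.0% of the 466 after Sirt2, and on chromosome 16, which carries Nr1i2, it was 28.9% of 266. Without the 2 narrow arrays, 7 were higher and 24 lower (33.3%, against 15.2% of all genes, 36.0% before Sae1 and 12.7% after Sirt2). With all arrays kept and the Cyp2 genes left out, 8 of 84 neighbours were higher and 22 lower (35.7%). With all 93 neighbours, centred arrays gave 14 higher and 27 lower, where 21.1% of all genes were called. Quantile normalization gave 15 and 30, where 20.5% of all genes were called. Array weights gave 14 and 30, for which the share of all genes is not given here.

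Along the chromosome the called genes came in stretches. In females, with the 6 genes left out, 64.0% of genes were called at places 1 to 50, 12.0% at 51 to 100, 34.8% at 101 to 150, 45.8% at 151 to 200 and 40.0% at 201 to 250. From place 251 to the end at 665, stretches of 50 genes had 6.0 to 26.0% called. Ccdc61, Clptm1, Igsf23 and Sae1 belong to the stretch from 101 and Zfp235 and Sirt2 to the one from 151. Without the narrow arrays the first 5 stretches gave 58.0, 14.0, 26.1, 41.7 and 40.0%, and the later ones 0 to 18.0%, so the order of high and low stretches was similar.

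**Figure D4:**
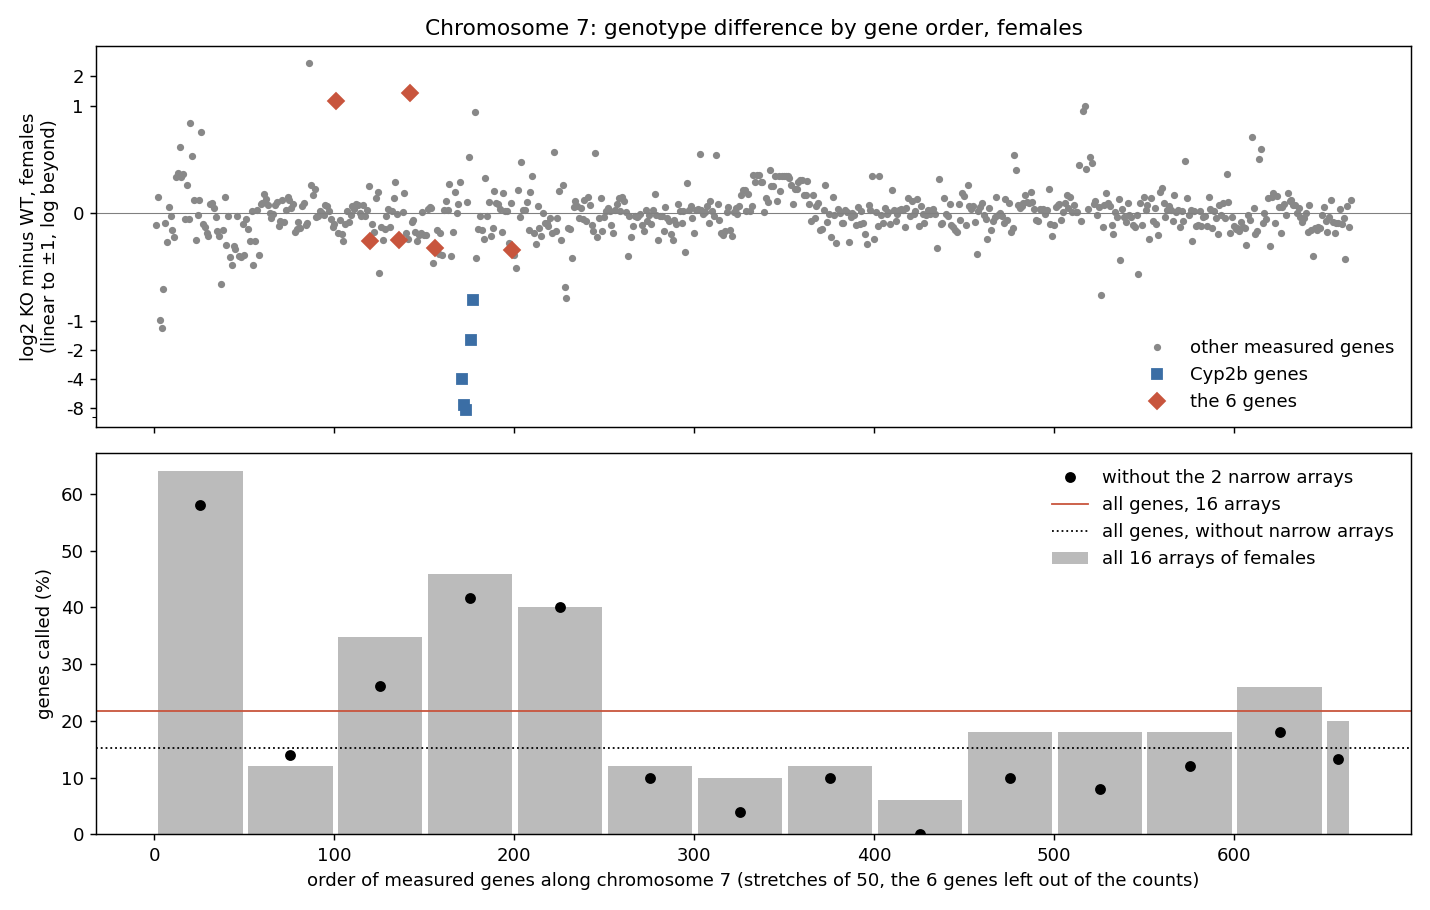
Upper panel, PXR-KO minus WT in females (log2, linear to ±1 and logarithmic beyond) against the order of 665 measured genes on chromosome 7, with the 6 genes as red diamonds and the Cyp2b genes as blue squares; lower panel, percent of genes called in stretches of 50, with bars for all 16 arrays, dots without the 2 narrow arrays and lines for the shares of all genes, 21.8% and 15.2%. Stretches 1 to 50, 101 to 250 and 601 to 650 lie above the lines of all genes, and Sae1 and Igsf23 stand at 1.11 and 1.35.

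Averaged over both sexes, 33 of the 93 neighbours were higher and 47 lower (86.0%), against 71.4% of all genes (40.8% higher and 30.6% lower). This high share holds the male arrays, where genotype and narrow spread go together. With a term for the narrow arrays, 5 neighbours were higher and 13 lower, against 5.21% of all genes. That term is estimated within the control-fed PXR-KO females alone, so it makes the genotype difference less precise, and fewer calls need not mean smaller differences. Centred arrays moved the share of higher genes among all called from 57.1% to 73.6%, and quantile normalization to 49.2%. Among the 93 neighbours the same settings gave 39 higher and 40 lower, and 19 higher and 39 lower, where 67.2% and 43.9% of all genes were called.

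The Cyp2b genes gave the 5 largest falls of the neighbours. Cyp2b9 differed by -6.50 ± 0.51 (SE) over both sexes, Cyp2b13 by -5.16 ± 0.34, Cyp2b10 by -3.34 ± 0.41, Cyp2b23 by -1.25 ± 0.11 and Cyp2b19 by -0.65 ± 0.06, and all 5 passed. Their PXR-KO means, 3.98 to 4.75, lie below all array medians and are not shown to be above background. Qpctl, a glutaminyl cyclase gene, fell by 0.64 ± 0.08. P450 genes also rose, namely Cyp2a4 by 0.77 ± 0.19 and Cyp2g1 by 0.77 ± 0.08, as did Ppp1r37, which encodes a regulator of a protein phosphatase, by 0.27 ± 0.04, and Lipe, the gene of hormone-sensitive lipase, by 0.25 ± 0.06. The largest rises also took in Mir3100 and Vmn1r-ps86, at 0.23 each. Of these 12 genes, Cyp2a4, Lipe and Vmn1r-ps86 did not pass in females alone (limma adjusted p = 0.172, 0.104 and 0.479).

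The measured genes next to each of the 6, taken by position after the values had been seen, went in both directions. Beside Igsf23 stood Pvr, a nectin-like receptor gene, which was lower in PXR-KO by -0.39 ± 0.05 (SE) where Igsf23 was higher by 1.28. Beside Sae1 stood Inafm1 (-0.13 ± 0.03) and Arhgap35 (-0.15 ± 0.03), both lower where Sae1 was higher. The genes with the largest rises were thus each flanked by genes that fell or, as Nlrp9b beside Igsf23 (0.02 ± 0.03), did not pass.

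Zfp235 stood beside zinc finger genes that were lower with it, Zfp180 (-0.39 ± 0.04), Zfp111 (-0.14 ± 0.03) and Zfp109 (-0.32 ± 0.03). Beyond Zfp180 stood Vmn1r177, which was higher (0.12 ± 0.05) at genotype means of 2.80 and 2.68, below all array medians. On 1 side of Sirt2 stood Sars2, a mitochondrial seryl-tRNA synthetase gene (0.11 ± 0.03), and Mrps12, a mitochondrial ribosomal protein gene (-0.25 ± 0.03). On the other stood Ech1, of fatty acid oxidation (-0.37 ± 0.05), and Lgals4, a galectin gene (-0.53 ± 0.07). Clptm1 lay between Zfp296 (-0.16 ± 0.05) and Apoc1 (-0.14 ± 0.02), an apolipoprotein gene. The next genes out from Clptm1, Ppp1r37 (0.27 ± 0.04) and Apoe (0.04 ± 0.02), were higher. Ccdc61 lay between Pglyrp1 (0.13 ± 0.04) and Nova2 (-0.11 ± 0.03). All of these passed over both sexes, in a comparison that calls 71.4% of all genes. In females Zfp296, Inafm1, Sars2, Nova2, Vmn1r177 and Apoe did not pass (limma adjusted p = 0.969, 0.121, 0.0712, 0.114, 0.604 and 0.817).

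Genes that work with the 6 were counted from lists arranged by their roles. Of the SUMO pathway, 6 genes were measured besides Sae1, and in females 1 was higher and 2 lower, where 21.8% of all genes passed. Ranbp2, a SUMO ligase gene, differed by 0.13 ± 0.05 (SE), Senp1, a SUMO protease gene, by -0.11 ± 0.03, and Pias3, another ligase gene, by -0.09 ± 0.03. Over both sexes 1 was higher (Rnf4, 0.08 ± 0.02) and 4 lower, and the median of the list with Sae1 was -0.06. Sae1's 1.18 was thus far from the values of its pathway. Of the sirtuins only Sirt3 was measured beside Sirt2, and it differed by -0.002 ± 0.05 in females and by 0.10 ± 0.04 over both sexes.

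Of 9 other zinc finger genes of proximal chromosome 7, 2 were higher and 5 lower in females, and 3 and 6 over both sexes. Over both sexes Zfp790 rose by 0.37 ± 0.04 and Zfp30 by 0.22 ± 0.03, both beyond Sirt2 in gene order, while Zfp27, beside them, fell by 0.22 ± 0.03. Of 6 centriole genes besides Ccdc61, 1 was higher (Poc1b, 0.12 ± 0.04) and 1 lower in females (Sass6, which encodes the cartwheel protein, -0.43 ± 0.05). Of 7 immunoglobulin superfamily genes of the Ceacam and nectin kind, Nectin2 was higher (0.19 ± 0.06) and Pvr lower (-0.24 ± 0.07) in females. The 9 measured Cyp2 genes of the chromosome were called for genotype over both sexes, 2 higher and 7 lower, where 71.4% of all genes were called. Of the 9, 6 were higher on EtOH (Cyp2b10 by 1.75 ± 0.41, limma adjusted p = 0.0174), a comparison that called 8.13% of all genes and in which 0 of the 6 genes passed. That value averages unlike genotypes. From control to EtOH diet the Cyp2b10 mean went from 7.19 to 10.36 in WT females and from 5.93 to 8.89 in WT males (SD 2.36 and 2.03, n = 4). In PXR-KO it went from 4.55 to 4.86 in females and from 4.52 to 5.07 in males, below all array medians.

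Markers of other cell types moved with genotype. In females 9 of 10 Kupffer cell markers were higher in PXR-KO, with a median difference of 0.46, and 3 of 4 T and NK cell markers. Of all genes 10.1% were higher in females. Over both sexes 1 of the 10 and 1 of the 4 were, where 40.8% of all genes were higher. In males, where genotype and narrow spread go together, the Kupffer markers Csf1r (-0.36 ± 0.10, SE), Clec4f (-0.26 ± 0.10) and C1qa (-0.24 ± 0.09) were lower. Their limma adjusted p-values were 0.00332, 0.022 and 0.0223, and Cd5l stood at 0.003 ± 0.17. The other Kupffer markers did not pass in males, where 2489 of all 8426 genes were lower and 71.5% were called. The average over both sexes thus joins values of opposite sign. The mean log2 level of the Kupffer markers over the arrays ranged from 7.63 to 9.60 in PXR-KO and from 8.02 to 9.04 in WT, and that of the T and NK markers from 4.70 to 5.80 and from 4.84 to 5.14. Of stellate markers 2 of 2 were lower (mean levels of 6.79 to 7.41 in PXR-KO and 6.98 to 7.82 in WT), and of cholangiocyte markers 2 of 2 (5.17 to 5.42 and 5.36 to 5.65). These counts were the same over both sexes and in females, where 30.6% and 11.7% of all genes were lower. The endothelial marker Lyve1 differed by -0.01 ± 0.17 (SE) in females, -0.55 ± 0.17 in males and -0.28 ± 0.12 over both sexes (limma adjusted p = 0.961, 0.00565 and 0.0347). Over both sexes the hepatocyte markers were lower as well, 3 of 3, with Ttr at -0.14 ± 0.03, Alb at -0.07 ± 0.02 and Apob at -0.05 ± 0.02 (mean levels of 12.8 to 12.9 in PXR-KO and 12.9 to 13.0 in WT), and in females 1 of 3 was. The shares of all genes that were lower, 30.6% over both sexes and 11.7% in females, apply to the hepatocyte counts too. Whether any of these cell types has a part in the differences of the 6 genes was not tested.

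Within groups the 6 genes did not move as a set. After each group's mean was subtracted, Pearson's r over the 32 arrays between pairs of the 6 was -0.41 to 0.46, with a median of -0.002 over 15 pairs. With the Cyp2b genes it was -0.30 to 0.59 over 30 pairs. These are descriptions, since arrays share normalization and labels.

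Genes most like each of the 6 were named by the absolute Pearson's r over all 32 arrays, which carries the genotype difference. For Sae1 these were Pttg1, the securin gene on chromosome 11 (r = -0.98), and Nnt, the nicotinamide nucleotide transhydrogenase gene on chromosome 13 (r = 0.96). For Igsf23 they were Pttg1 (-0.94) and Mcam (-0.93), for Ccdc61 Fundc1 (-0.92) and Tbc1d23 (-0.89), for Clptm1 Med21 and Smim10l1 (0.89 each), for Zfp235 Ift57 (-0.93) and Kidins220 (0.90), and for Sirt2 Ctdnep1 and Fxyd1 (0.91 each). Of these 11 genes, Fxyd1 is on chromosome 7. With group means subtracted, Sirt2 was most like Ndufa3 (r = 0.88) and Selenow (0.85), both on chromosome 7. Ccdc61 was then most like Rbm20 (0.87) and Daam2 (0.81), and Clptm1 like Rpl8 (0.80) and Rpl14-ps1 (0.78). Zfp235 was most like Nt5c (-0.79) and Tnfaip8l2 (-0.78), and Sae1 like Snora30 (-0.72) and Tmem30a (-0.71). Igsf23 was most like Catsperb (-0.71) and Vmn1r-ps116 (-0.70). Rpl14-ps1 and Snora30 are on chromosome 7 as well.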

How the data were processed

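The deposited table holds log2 intensities of 10964 probes on 32 arrays, normalized by the authors before deposit; the submitters' processing notes name oligo and limma without version or role, and the background correction and normalization method are not given in the sources used here. Array medians lay between 5.29 and 5.43 and 0 pairs of arrays were identical. Arrays carry no read depth, and 4 arrays a group limit the precision. Probes with 1 gene symbol in the platform annotation were kept (8474, 239 of them with a symbol updated through the gene identifier), and the brightest probe stood for the 36 genes with several, giving 8426 genes. Gene order on chromosomes and promoter sequences come from RefSeq (GRCm38.p6); the files name no build.

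The deposited log2 values were fitted in R 4.3.3 by limma 3.58.1 with empirical Bayes moderation, giving each of the 8 groups a mean of its own and all 32 arrays a shared spread. Tests were two-sided, adjusted by Benjamini-Hochberg over all genes and called at 0.05. The fit was checked on simulated data. The 6 genes, the gene lists, the tests and the alternatives were chosen with earlier results of these data known. Named genes were the 6, Nr1i2, the Cyp2b genes, up to 4 of each list by smallest p for the averaged genotype difference, the called neighbours with the 6 largest rises and the 6 largest falls without predicted loci, and the 2 genes most correlated with each of the 6 over all arrays and within groups; others are marked where named, or were named from a list because they passed in females. Same-numbered arrays of different groups did not deviate together (r of deviations -0.49 to 0.40, median 0.005, over 112 pairs), so numbers do not pair arrays. Alternatives were centred arrays, quantile normalization, the dimmest genes left out, moderation with trend and robust estimation, array quality weights, the replicate number as a block, the mean of a gene's probes, fits limited to a contrast's own arrays, a term for the narrow arrays or their removal, removal of array 1 of the EtOH-fed WT males, and each array left out in turn. Leaving out the Cyp2 genes from the neighbours was added after the data were seen.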

Additional observations from a re-analysis of the deposited data

Results flagged for a closer look

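In 48 groups of 4 arrays, 6 genes in 8 groups, 3 arrays lay far from the other 3 of their group by Dixon's criterion, a number near the 1 in 20 groups that chance gives. Clptm1 in array 3 of the control-fed PXR-KO females had a log2 intensity of 9.21, below the 9.30 to 9.31 of the other 3. Igsf23 in array 4 of the control-fed PXR-KO males had 6.74, below the 7.33 to 7.44 of the others. Zfp235 in array 3 of the EtOH-fed PXR-KO males had 5.48, above the 5.29 to 5.32 of the others. All 3 arrays lay on the PXR-KO side of every WT array, which follows from the choice of the genes.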

How the results depend on the processing

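The differences between PXR-KO and WT kept their direction for all 6 genes under every setting run. Where arrays were left out, that direction was fixed by the choice of the genes. Under each setting 0 of the 6 were called for diet, sex or the interactions. With the replicate number as a block, all 79 results kept their direction and side of the threshold, 0 of the 6 were again called for diet, and 31 neighbours were higher and 47 lower over both sexes. Leaving out single arrays also gave 0 calls among the 6 for every diet, sex and interaction test. The number of arrays and the small size of the effects limit these tests: values near 0 changed sign easily.

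With a term for the narrow arrays Igsf23 differed by 1.48 ± 0.14 (SE) over both sexes in place of 1.28 ± 0.07, and 5 neighbours were higher and 13 lower, in place of 33 and 47. That term rests on arrays 1 and 2 of the control-fed PXR-KO females against the others of their group. The genotype difference of males is then less precise, with 0.973% of all genes called in males in place of 71.5%. Fewer calls with the term therefore cannot tell a smaller difference from a less precise one. Over both sexes 19 neighbours were higher with quantile normalization, which called 43.9% of all genes, and 16 without the dimmest genes, which tests fewer genes. In females 14 were higher with centred arrays, 15 with quantile normalization and 14 with array weights, in place of 9. Counting the listed genes together with the 6, called SUMO pathway genes went from 6 to 3 with centred arrays or quantile normalization and to 1 with the narrow term; with that term sirtuins went from 2 to 0, zinc finger genes from 10 to 5, centriole genes from 6 to 3 and immunoglobulin superfamily genes from 7 to 2. The sirtuin count was 1 to 2 with single arrays left out, and was 1 without array 2 of the control-fed WT males, array 3 of the control-fed or of the EtOH-fed PXR-KO males, or array 2 of the EtOH-fed PXR-KO females. The cause of these shifts was not tested.

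Among diet differences that did not pass, Clptm1 in WT females changed sign to -0.037 with quantile normalization. In PXR-KO females Zfp235 turned to -0.018 with centred arrays, -0.0089 with quantile normalization and -0.027 with the narrow term or without the narrow arrays, and Ccdc61 to 0.0024 with the last 2. Averaged over all groups, Ccdc61 turned to -0.0071 with centred arrays and -0.022 with quantile normalization, and Sirt2 to -0.011 with quantile normalization and -0.0004 with the narrow term. For the diet by genotype interaction Ccdc61 turned to -0.017 with centred arrays and -0.010 with array weights, and Sae1 to 0.0003 with quantile normalization and 0.020 with the narrow term. Sirt2 turned to -0.022 in the sex difference in WT with array weights. For sex by genotype, Zfp235 turned to -0.0033 with centred arrays and -0.0050 with the narrow term, which also gave 0.0046 for Clptm1 and -0.11 for Igsf23.

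With single arrays left out, the diet difference ran from -0.0008 to 0.068 for Clptm1 in WT females, from -0.029 to 0.057 for Zfp235 in WT females and from -0.016 to 0.058 in PXR-KO females, from -0.038 to 0.0091 for Ccdc61 in PXR-KO females and from -0.014 to 0.060 in PXR-KO males, and from -0.12 to 0.061 for Igsf23 in PXR-KO females. For Sae1 it ran from -0.060 to 0.083 in WT males and from -0.017 to 0.066 in PXR-KO males, for Sirt2 from -0.084 to 0.015 in PXR-KO males, and for Ccdc61 averaged over groups from -0.0049 to 0.014. The diet by genotype term ran from -0.017 to 0.020 for Ccdc61, from -0.045 to 0.032 for Sae1 and from -0.050 to 0.012 for Zfp235. The sex difference in WT ran from -0.0099 to 0.067 for Sae1, from -0.025 to 0.023 for Sirt2 and from -0.057 to 0.0046 for Zfp235.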

Other observations

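Nnt, a mitochondrial transhydrogenase gene of which C57BL/6J mice are known to carry a deletion, was named after its values were seen. Its mean log2 intensity was 9.06 ± 0.09 (SD, n = 16) in PXR-KO and 8.27 ± 0.15 in WT, a difference of 0.79 ± 0.04 (SE), and every PXR-KO array lay above every WT array. It is on chromosome 13, and over all 32 arrays its Pearson's r with Sae1 was 0.96.

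Sirt2 and Nr1i2 had a Pearson's r of 0.67 over the 32 arrays with group means subtracted, and Zfp235 and Nr1i2 of 0.63. These values are descriptions, since the arrays share normalization, and the 2 pairs were picked after their values were seen.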
